A study of Homo sapiens with 4 samples.

Results

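The genes CREBBP and EP300, which encode the coactivators CBP and p300, were examined together with 7 genes of other lysine acetyltransferases, KAT2A, KAT2B, KAT5, KAT6A, KAT6B, KAT7 and KAT8. A peak was assigned to a gene when it overlapped the GENCODE gene body or the 10 kb upstream of it, and peaks at the promoter were kept apart from peaks in introns. The 9 genes, of 19970 protein-coding genes, held 112 of the 250225 peaks in the 4 lists of this study, which merged into 42 of 93211 accessible regions.

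Lysine acetyltransferases move an acetyl group from acetyl-CoA to lysines of histones and other proteins, and acetylated histone tails are found at active promoters and enhancers. CBP and p300 are close relatives that many transcription factors recruit. KAT2A (GCN5) and KAT2B (PCAF) work in the SAGA and ATAC type complexes, and the MYST family (KAT5 or TIP60, KAT6A or MOZ, KAT6B or MORF, KAT7 or HBO1, KAT8 or MOF) works in complexes that acetylate mostly histones H3 and H4.

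ATAC-seq, a method that inserts sequencing adapters into open chromatin with a transposase, had been run on HK1, an established human nasopharyngeal carcinoma cell line. WT cells and cells in which FLI1, the gene of an ETS family transcription factor, had been knocked out by CRISPR with a guide RNA (sgFLI1) were left untreated or were given the cytokine interferon-γ (IFN-γ), and all 4 groups share the HK1 background. Each group (named WT, WT-IFN-γ, sgFLI1, or sgFLI1-IFN-γ) is represented by 1 peak list, so the variation among replicates is unknown and groups could not be tested against each other. The labels do not say whether the knockout cells were 1 clone or a pool, so a clone or library effect cannot be told apart from the genotype. The sequenced libraries are described by 4 lists of 59629 to 67470 peaks. The unit used throughout is the summit pileup, the whole number of tags over a peak's highest point, and the 95% intervals cover counting error only. Depth, expressed as tags per kb of genome, was 8.04, 8.84, 6.93 and 6.86 in the order just named, and levels and ratios between libraries are pileups divided by this density. Of 10 epithelial marker genes, 7 or 8 had a promoter peak in every library, although TP63 and GRHL2 had none in any of them, while of 10 markers of blood, endothelial and stromal cells 2 to 4 had one, and those without one in any library included CD3E, CD3D, MS4A1, PECAM1 and COL3A1. The strongest promoter peak in a library held 119 to 194 tags among the epithelial markers and 132 to 172 among the others. The sets thus overlapped in strength.

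Sequences under the regions to which the results refer are given first, all from GRCh38. The study reported lower KAT5 as well as lower CBP in FLI1-knockout cells, and knocked each of them down. The CREBBP promoter is shown because CBP is the acetyltransferase the study then followed. These are the 250 bases upstream of the RefSeq start (chr16:3880714-3880963, minus strand, no annotated exon), in which capitals mark 3 GGGCGG boxes (the core bound by SP1 and KLF factors, written CCGCCC where it lies on the other strand, the first pair overlapping by 1 base) and 1 match to the consensus of interferon regulatory factors (IRF), on the other strand and in a stretch of mostly A and T bases:
CREBBP promoter: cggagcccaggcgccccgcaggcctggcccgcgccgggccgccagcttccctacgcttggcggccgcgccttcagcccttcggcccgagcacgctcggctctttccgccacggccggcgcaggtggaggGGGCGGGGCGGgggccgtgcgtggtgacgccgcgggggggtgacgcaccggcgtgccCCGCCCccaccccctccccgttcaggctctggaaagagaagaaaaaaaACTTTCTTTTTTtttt
The EP300 peak is shown for comparison with its relative, as 201 bases centred on its summit in sgFLI1 (chr22:41091556-41091756, plus strand), with 3 GGGCGG boxes in capitals:
EP300 promoter summit: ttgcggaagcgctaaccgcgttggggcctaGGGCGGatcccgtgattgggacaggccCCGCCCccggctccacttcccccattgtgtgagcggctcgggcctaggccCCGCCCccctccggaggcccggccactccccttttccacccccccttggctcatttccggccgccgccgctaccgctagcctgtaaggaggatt
Of the 9 genes, KAT2B had the most regions, and 3 windows of 201 bases in its first intron are shown (plus strand, none over an annotated exon). The first, 3.19 kb from the transcription start site (TSS; chr3:20043532-20043732), and the last, 20.6 kb from it (chr3:20060984-20061184), had no peak in WT and each hold 1 IRF consensus match in capitals. The second, 14.3 kb from the TSS (chr3:20054676-20054876), was accessible in all 4 libraries and holds 2 AP1 sites (TGACTCA, or TGAGTCA on the other strand) in capitals:
KAT2B intron 1, first window: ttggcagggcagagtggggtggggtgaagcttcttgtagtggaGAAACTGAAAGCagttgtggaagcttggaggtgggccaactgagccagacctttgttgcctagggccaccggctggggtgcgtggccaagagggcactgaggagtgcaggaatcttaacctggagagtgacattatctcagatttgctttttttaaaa
KAT2B intron 1, second window: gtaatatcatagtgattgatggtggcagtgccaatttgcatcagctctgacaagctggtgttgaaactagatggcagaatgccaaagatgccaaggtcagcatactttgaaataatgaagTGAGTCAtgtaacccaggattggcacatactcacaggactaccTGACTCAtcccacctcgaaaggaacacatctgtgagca
KAT2B intron 1, last window: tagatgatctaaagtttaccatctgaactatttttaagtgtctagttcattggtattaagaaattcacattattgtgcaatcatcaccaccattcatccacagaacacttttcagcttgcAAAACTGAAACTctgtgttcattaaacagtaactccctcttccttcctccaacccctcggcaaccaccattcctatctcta
The ETS consensus CCGGAAGT, a sequence that FLI1 and other ETS factors bind, was searched in this exact form only. Among the members searched, it occurred under the promoter summits of KAT5 and KAT7 only. The 3 sites are shown as 30 bases each on the plus strand, with the consensus in capitals (chr11:65712205-65712234, chr11:65712230-65712259 and chr17:49788629-49788658):
KAT5 site 1: ggcgctcggtcCCGGAAGTgacgtctccca
KAT5 site 2: tcccagaggggCCGGAAGTggcagtggagg
KAT7 site: gcgagacccagCCGGAAGTgaaggaaaaag

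The first question was where the chromatin of the 9 genes was open. Each of them had a peak within 3 kb of the canonical TSS in each of the 4 libraries, and all 12 promoter regions were found in all 4 lists. Among all protein-coding genes, 62.9% had a promoter peak in every list. Outside the canonical promoters the lists diverged. Of the 26 regions in introns or near another annotated start inside the genes (all 26 in introns of the canonical transcript), 5 were found in all 4 lists and 15 in 1 list only. Of the 16 farther than 3 kb from any annotated start of their gene, 4 were in all lists and 10 in 1 only. Of the 10 near another start, 1 was in all lists and 5 in 1 only. Over all gene-body regions, 35.1% were in all 4 lists and 38.1% in 1. Those leave out regions within 3 kb of any start of a protein-coding gene, of which, canonical promoters included, 66.4% and 18.2% were. The remaining 4 regions lay upstream, and 3 of these were in every list.

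CREBBP, a gene of 156 kb on chromosome 16, had 2 promoter regions. The stronger one, upstream of the TSS, had 86 tags in WT (95% interval 68.8 to 106) and 94 in WT-IFN-γ (76.0 to 115). FLI1-KO cells had 75 tags untreated (59.0 to 94.0) and 65 after IFN-γ (50.2 to 82.8). Per unit of tag density the levels were 10.7, 10.6, 10.8 and 9.48, so that the 4 libraries lay within each other's counting error. The second region, 0.660 kb into the transcript, had 45, 35, 25 and 25 tags in the same order. It was lower in sgFLI1 than in WT by a log2 ratio of -0.63 (-1.40 to 0.10), an interval that includes 0.

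EP300 was accessible at a single region, centred 0.936 kb upstream of its TSS, with no peak in the rest of its 87.5 kb. Its summit held 85 tags in WT and 93 in WT-IFN-γ cells, against 75 in sgFLI1 and 64 in sgFLI1-IFN-γ cells, within 1 tag of the main CREBBP peak in every library. Over the 3 log2 ratios to WT, EP300 differed from CREBBP by 0.0079 on average, the smallest such difference among the members, followed by KAT7 (0.078) and KAT5 (0.117). These 3 points share the WT library, and the likeness is a description.

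KAT2A, the GCN5 gene, had the lowest promoter level of the 9 in every library, with 40 tags in WT cells and 51 after IFN-γ, and 36 and 47 in FLI1-KO cells without and with IFN-γ. Its value was higher in each IFN-γ library than in the untreated one of the same genotype, by a log2 ratio of 0.21 (-0.41 to 0.85) in WT cells and 0.40 (-0.26 to 1.07) in FLI1-KO cells, and both intervals include 0.

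KAT2B, the PCAF gene, had 2 promoter regions, both lower in untreated FLI1-KO than in untreated WT cells. The region downstream of the TSS had 102 tags in WT and 104 in WT-IFN-γ cells, against 56 in sgFLI1 and 42 in sgFLI1-IFN-γ cells, so that both FLI1-KO libraries were below both WT libraries. Its log2 ratio was -0.65 (-1.15 to -0.17) in sgFLI1 against WT and -0.94 (-1.50 to -0.41) in sgFLI1-IFN-γ against WT-IFN-γ. The region upstream of the TSS had 83, 84, 49 and 64 tags, with log2 ratios of -0.55 (-1.09 to -0.02) without and -0.03 (-0.52 to 0.46) with IFN-γ. The upstream region was the stronger one in sgFLI1-IFN-γ, and taking the stronger region of each library as the promoter gave -0.33 (-0.81 to 0.13) for KAT2B with IFN-γ. The other shared peaks within 5 Mb of KAT2B had a median log2 ratio of -0.11 without IFN-γ (67 peaks) and -0.24 with it (75 peaks).

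Among the MYST genes, KAT5 had the highest promoter level of the 9 in 3 libraries and shared it with KAT7 in WT-IFN-γ, where both had 206 tags. The KAT5 promoter, which holds a pair of ETS consensus matches, had 212 and 206 tags in WT cells without and with IFN-γ. In FLI1-KO cells it had 172 and 169. The KAT7 promoter, with 1 ETS consensus match, had 186, 206, 145 and 146 tags. It is shared with the start of FAM117A, 40 bp from the summit, so that its tags cannot be given to 1 gene. The log2 ratios of FLI1-KO to WT cells were -0.09 (-0.39 to 0.21) without and 0.08 (-0.22 to 0.38) with IFN-γ for KAT5, and -0.14 (-0.47 to 0.18) and -0.13 (-0.45 to 0.18) for KAT7, all with intervals that include 0.

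KAT6B had 166, 189, 169 and 140 tags at its promoter, and KAT6A had 92, 94, 94 and 80. Neither gene had a promoter ratio whose interval excluded 0. KAT8 had 154 tags in WT cells and 166 after IFN-γ, and 108 and 96 in FLI1-KO cells without and with IFN-γ, with both FLI1-KO libraries below both WT libraries. With IFN-γ the KAT8 level per tag density was 18.8 in WT cells and 14.0 in FLI1-KO cells, a log2 ratio of -0.42 (-0.80 to -0.05). Shared peaks within 5 Mb of KAT8 had a median of -0.36 in the same comparison, and beside this median the KAT8 ratio was -0.07.

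**Figure D1:**
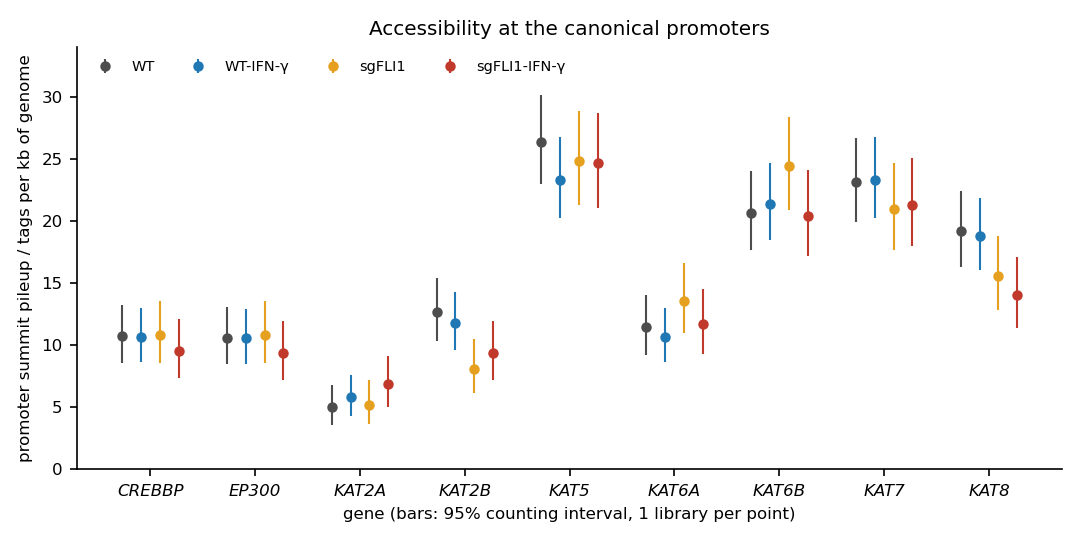
Summit pileup of the strongest canonical promoter peak of each gene divided by the library's tag density (tags per kb of genome), with 95% counting intervals, for the 4 libraries (1 peak list each). CREBBP and EP300 sat at about the same level, between 9.33 and 10.8, while KAT5 was at 23.3 to 26.4 and KAT2A at 4.97 to 6.85.

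In the order of levels, KAT5, KAT7, KAT6B and KAT8 formed the upper group and KAT2A the lower end in every library. Neighbours in the order overlapped in their intervals in most places. In WT the intervals separated KAT8 from KAT2B and EP300 from KAT2A, and the same breaks were seen in WT-IFN-γ. In sgFLI1 no pair of neighbours was separated, and in sgFLI1-IFN-γ only KAT6B and KAT8 were. KAT2B stood in place 5 in both WT lists and in place 8 in both FLI1-KO lists, in sgFLI1-IFN-γ level with EP300.

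The promoter ratios were then set against those of all promoters. In WT-IFN-γ against WT, 0 of the 9 genes were beyond 1.5-fold, against 1.51% of 12961 promoters higher and 1.93% lower, and the members' median log2 ratio was -0.01 (all promoters, -0.08). In sgFLI1-IFN-γ against sgFLI1, again 0 were beyond it (0.670% higher and 3.05% lower of all promoters), with a median of -0.15 (all, -0.16). In sgFLI1 against WT, KAT2B alone was beyond it, lower (3.67% higher and 4.34% lower), with a median of 0.02 (all, 0.02). Its ratio of -0.65 became -0.57 on library background, -0.54 beside its neighbourhood median and -0.55 at the peak nearest the TSS, all short of 1.5-fold. The KAT2B ratio stayed beyond 1.5-fold, at -0.70, when scaled to the median pileup of peaks in all 4 lists. With local background subtracted it was -0.74. In sgFLI1-IFN-γ against WT-IFN-γ, 0 were beyond it (2.82% higher and 5.61% lower), with a median of -0.13 (all, -0.06). A share of 1 in 9 in a single comparison cannot be read as different from these backgrounds. The comparisons share libraries and are not independent of each other.

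**Figure D2:**
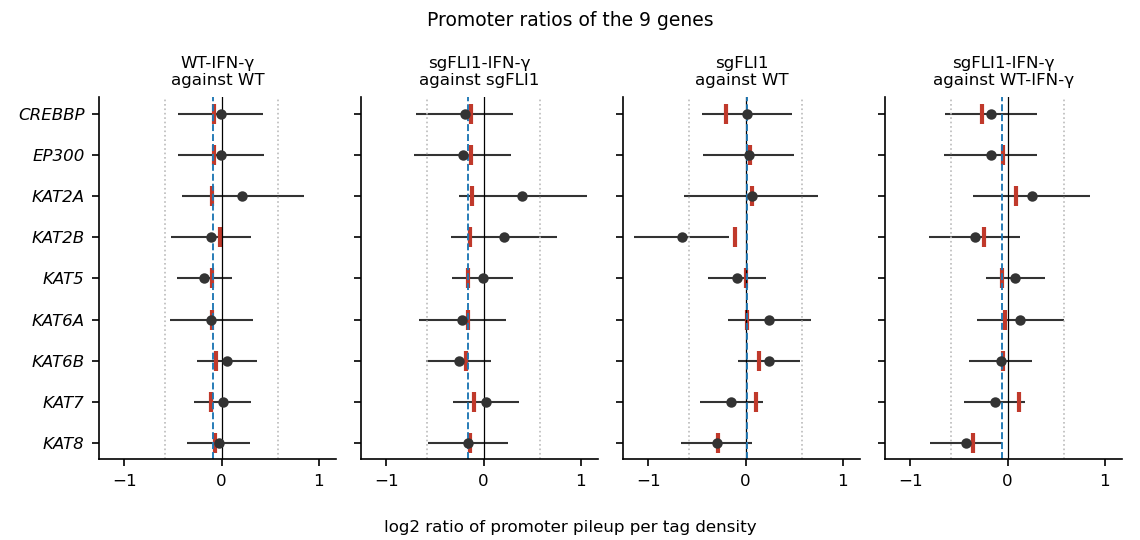
Log2 ratio of promoter pileup per tag density for each gene (points, 95% counting interval) in the 4 comparisons, with the median of shared peaks within 5 Mb (red ticks), the median of all promoters (dashed blue line) and the 1.5-fold limits (dotted grey lines). KAT2B in sgFLI1 against WT (-0.65) is the single point beyond a limit, and the KAT8 points at -0.30 and -0.42 lie beside neighbourhood medians of -0.28 and -0.36.

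CREBBP lies on the same chromosome as KAT8, and peaks near it were also lower in FLI1-KO cells, with medians of -0.20 without and -0.26 with IFN-γ. The CREBBP promoter itself had ratios of 0.02 (-0.45 to 0.48) and -0.17 (-0.65 to 0.31), above these medians by 0.22 and 0.09, both less than the counting error. For KAT7 the neighbourhood was higher in FLI1-KO cells (0.10 and 0.12) and the promoter stood 0.25 below it in both comparisons. Whether copy number of these chromosome segments differed between the cells was not tested.

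The study's second question, what IFN-γ did to chromatin in each genotype, was followed through the presence and absence of peaks. Peaks of the 9 genes numbered 26 in WT cells and 35 after IFN-γ, and 28 in FLI1-KO cells and 23 after IFN-γ. Of the 35 peaks in WT-IFN-γ, 12 had no counterpart in WT, or 34.3% (Wilson interval 20.8% to 50.8%) against 25.2% of all peaks of that list. In the other direction, 3 of 26 WT peaks had none in WT-IFN-γ (15.9% of all WT peaks). In FLI1-KO cells 1 of 23 sgFLI1-IFN-γ peaks had no counterpart in sgFLI1 (18.0% of all), and 6 of 28 sgFLI1 peaks had none in sgFLI1-IFN-γ (22.2%). Each of these intervals includes the background of its list. The share in sgFLI1-IFN-γ was the farthest below it, at 4.35% (Wilson interval 0.77% to 21.0%) against 18.0%, and with 23 peaks the difference could not be resolved. The gain in WT cells depended on weak peaks. At −log10 q of at least 5, 5 WT-IFN-γ peaks had no counterpart in WT and 3 the reverse, and at 10 the direction turned, with 2 and 5, and 22 peaks in WT against 19 in WT-IFN-γ.

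Between genotypes, 7 of 28 sgFLI1 peaks had no counterpart in WT (25.3% of all) and 5 of 26 WT peaks had none in sgFLI1 (21.4%). With IFN-γ, 1 of 23 sgFLI1-IFN-γ peaks was missing from WT-IFN-γ (19.8%) while 13 of 35 WT-IFN-γ peaks were missing from sgFLI1-IFN-γ (29.0%). WT-IFN-γ was the deepest library and sgFLI1-IFN-γ the shallowest, which moves these counts in the same direction. The part of depth in them was not tested.

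**Figure D3:**
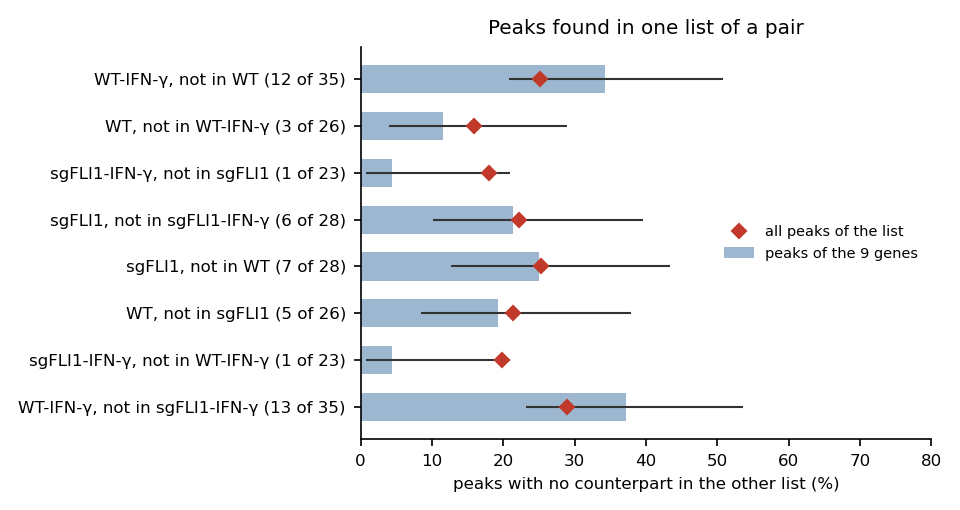
Share of the 9 genes' peaks with no overlapping peak in the other list of a pair (bars, 95% Wilson interval) beside the share over all peaks of that list (diamonds). The bars run from 4.35% (1 of 23) to 37.1% (13 of 35), and every interval includes its diamond.

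KAT2B carried 6 of the 12 peaks found in WT-IFN-γ and not in WT, CREBBP carried 3, and KAT6A, KAT6B and KAT7 carried 1 each. The strongest was the KAT2B region 3.19 kb into the first intron (chr3:20043461-20044059). It had no peak in WT and 122 tags after IFN-γ, and FLI1-KO cells had 35 tags there without IFN-γ and 50 with it. Of the 4 lists only WT lacked it, and both IFN-γ libraries were above both untreated ones. In WT, 28 tags would have reached the lowest listed −log10 p over a background of 14.4 estimated from the other lists. The WT background at the KAT2B promoter peaks was 18.1, so more tags may have been needed. The WT-IFN-γ pileup scaled to WT depth is 111 tags. This and later estimates leave out the authors' reproducibility filter, which could have removed a peak. Of the 16999 WT-IFN-γ peaks with no WT counterpart anywhere in the genome, 24 (0.141%) had as many tags, and of 2679 regions missing from WT alone, 5 did. The log2 ratio of sgFLI1-IFN-γ to WT-IFN-γ was -0.92 (-1.43 to -0.43) and that of sgFLI1-IFN-γ to sgFLI1 was 0.53 (-0.12 to 1.20).

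The neighbouring KAT2B region 14.3 kb from the TSS, with its AP1 pair, was in all 4 lists, with 93 tags in WT and 123 in WT-IFN-γ cells, against 117 in sgFLI1 and 82 in sgFLI1-IFN-γ cells. In contrast to the promoter regions of KAT2B, it was higher in sgFLI1 than in WT, by a log2 ratio of 0.55 (0.14 to 0.95), short of 1.5-fold. It was lower in sgFLI1-IFN-γ than in sgFLI1 by -0.50 (-0.92 to -0.08), whereas in WT cells the IFN-γ ratio was 0.27 (-0.13 to 0.67). The other KAT2B regions were weaker. The one at 20.6 kb had 23 tags and was found in WT-IFN-γ only. Those at 55.9, 68.6 and 97.1 kb had 9 to 13 tags, also in WT-IFN-γ only, near the lowest pileup listed in that library (8 tags).

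**Figure D4:**
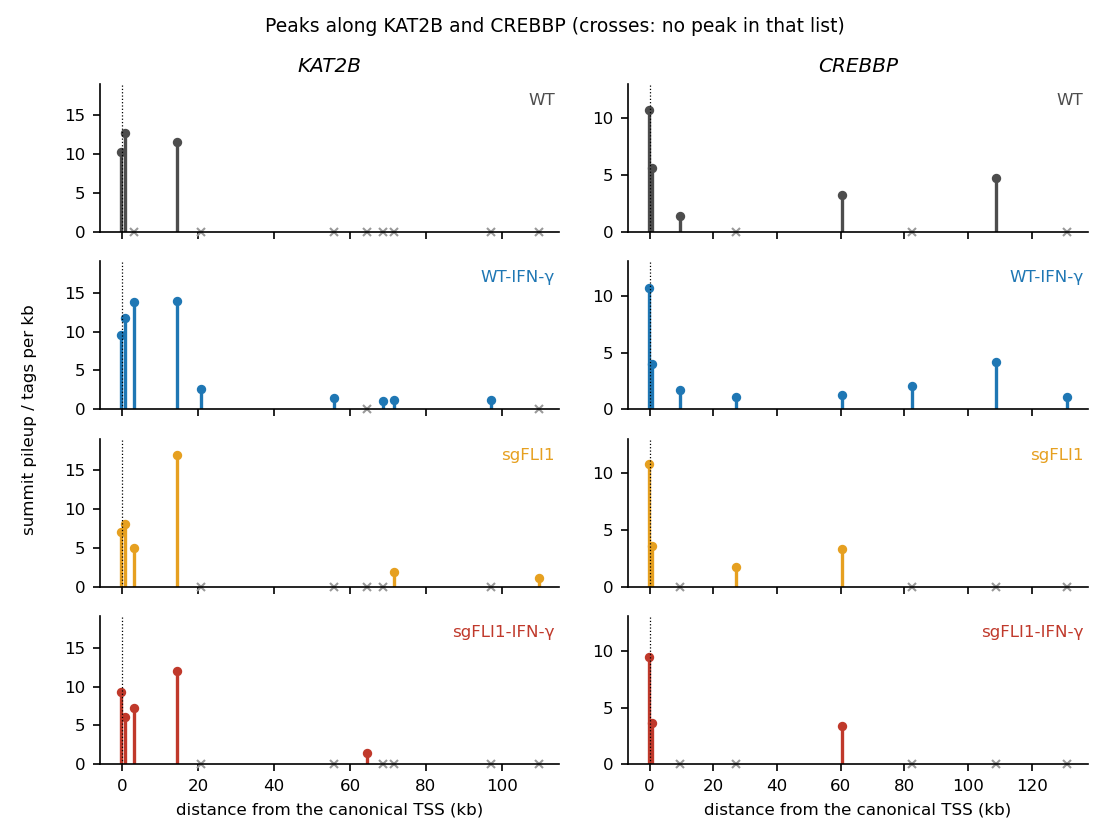
Summit pileup divided by tag density for every region of KAT2B (left) and CREBBP (right), by distance of the summit from the canonical TSS in kb (dotted line at the TSS), with 1 row for each library. Crosses mark regions with no peak in that list, such as the KAT2B region at 3.19 kb in WT.

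In CREBBP, the region 109 kb from the TSS, in intron 13, separated the genotypes. It had 38 tags in untreated and 37 in treated WT cells, with no peak in either FLI1-KO library. By the same estimate, 13 tags would have reached the lowest listed −log10 p in each of these. The stronger WT pileup scaled to their depths is 32.7 and 32.4 tags. This region lay 1038 bp from another annotated start of CREBBP. Of all WT peaks within 3 kb of any start of a protein-coding gene, 10.7% had no counterpart in sgFLI1. Of such WT-IFN-γ peaks, 15.1% had none in sgFLI1-IFN-γ. For gene-body peaks farther from such starts, the shares in the same order were 27.8% and 36.5%. A weaker CREBBP region 9.40 kb from the TSS followed the same pattern, with 11 tags in untreated and 15 in treated WT cells. There, an estimated 7 tags would have reached the lowest listed −log10 p in either FLI1-KO library. The region 60.4 kb from the TSS, in intron 2, was in all 4 lists, with 26 tags in WT cells and 11 after IFN-γ, and 23 and 23 in FLI1-KO cells without and with IFN-γ. WT-IFN-γ stood apart from the other three, with a log2 ratio to WT of -1.38 (-2.54 to -0.31) and a ratio of sgFLI1-IFN-γ to it of 1.43 (0.34 to 2.61). The regions at 82.6 and 131 kb had 18 and 10 tags and were found in WT-IFN-γ only, and the one at 27.1 kb had 10 tags in WT-IFN-γ and 12 in sgFLI1.

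KAT6B, the longest of the 9 genes at 208 kb, had 8 regions, 5 of them in 1 list only. The region 97.9 kb from the TSS, in intron 3, was in all lists with 49, 64, 38 and 33 tags, lowest in both FLI1-KO libraries. Its log2 ratio in sgFLI1-IFN-γ against WT-IFN-γ was -0.59 (-1.24 to 0.04). A region at 165 kb had 23 tags in WT and no peak elsewhere. In WT-IFN-γ, an estimated 9 tags would have reached the lowest listed −log10 p. The region at 196 kb had 19 tags in both WT libraries, 11 in sgFLI1 and no peak in sgFLI1-IFN-γ. KAT6A kept a region in intron 2, 56.5 kb from the TSS, with 34, 30, 25 and 21 tags.

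The short genes had few regions beside their promoters. KAT5 had one 5.82 kb upstream of the TSS, with 48, 45, 41 and 38 tags and a match to the consensus of CTCF, a factor of chromatin loop anchors. KAT2A had one in intron 11 with 43, 38, 27 and 36 tags, also with a CTCF match and 4148 bp from a start of DHX58. KAT7 had one 8.80 kb upstream, with no peak in WT and 21, 15 and 17 tags in the other libraries. In WT, an estimated 9 tags would have reached the lowest listed −log10 p. The upstream regions of KAT8 lay at starts of BCKDK, at distances of 7 and 225 bp, and may belong to that gene. KAT8 also had a region of 9 tags inside the gene in WT only.

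**Figure D5:**
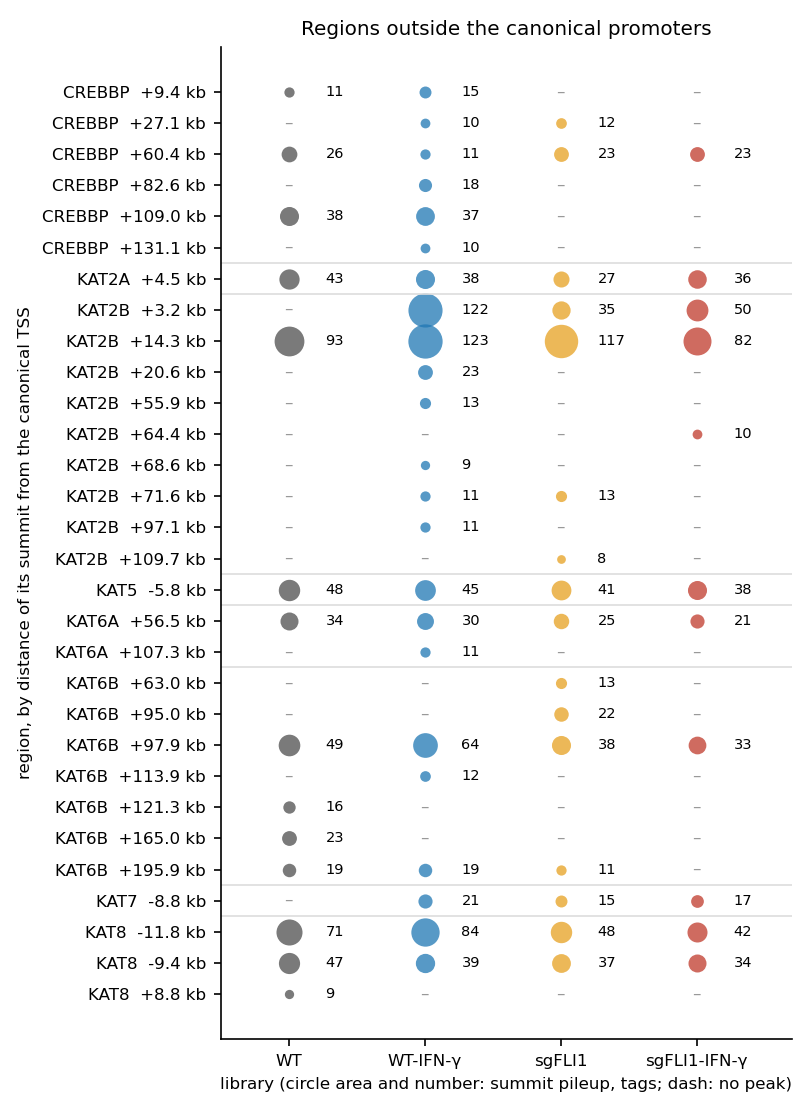
Summit pileup (tags, circle area and number) in each library for the 30 regions outside the canonical promoters, named by gene and distance of the summit from the TSS in kb, with a dash where the list has no peak. The 8 regions in all lists hold 11 to 123 tags, and those in 1 list only hold 8 to 23.

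Counted over these regions, the 15 found in 1 list only had 8 to 23 tags (median 12), and 8 of them came from WT-IFN-γ, 3 from WT, 3 from sgFLI1 and 1 from sgFLI1-IFN-γ. Of 11 regions outside the canonical promoters with a peak in both untreated and treated WT cells, 0 were higher and 1 was lower by more than 1.5-fold after IFN-γ (7.77% and 9.63% of all gene-body regions). The gene-body shares here and below leave out regions within 3 kb of any start of a protein-coding gene, some of which are among the members' regions. Of 10 in FLI1-KO cells, 0 were higher and 0 lower (3.12% and 8.81%). Of 9 shared by sgFLI1 and WT, 0 were higher and 0 lower (16.4% and 10.4%). Of 10 shared by sgFLI1-IFN-γ and WT-IFN-γ, 1 was higher and 3 were lower (13.6% and 13.3%), namely the CREBBP region at 60.4 kb, and the KAT2B region at 3.19 kb, KAT6B at 97.9 kb and KAT8 11.8 kb upstream.

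Motifs were searched on both strands within 100 bases of the strongest summit of each region, beside the same search in all regions. IRF matches were found in 3 of the 12 member regions with a peak in WT-IFN-γ and none in WT (the KAT2B regions at 3.19 and 20.6 kb and the CREBBP region at 131 kb), and in 0 of the 14 regions outside canonical promoters that had a WT peak. Over all gene bodies the shares were 12.4% of 6261 regions and 1.46% of 17387. Over regions of any place with a WT-IFN-γ peak and no WT peak, the share was 11.5% of 16838. The gene-body shares in this paragraph leave out regions within 3 kb of any start of a protein-coding gene. The member sets hold some such regions, among them the KAT2B region at 3.19 kb and the CREBBP region at 131 kb. AP1 sites were under 5 of the 26 intronic regions (21.1% of all gene-body regions) and 0 of the 12 promoter regions (10.1% of all promoter regions). CTCF matches were under 2 of the 26 (7.09% of all gene-body regions). The NFY box (CCAAT) was under 8 of the 26 (23.1%) and 4 of the 12 promoter regions (23.9% of all promoter regions). The ETS consensus CCGGAAGT was under 2 of the 12 promoter regions (3.25% of all promoter regions) and 0 of the 26 intronic ones (0.224% of all gene-body regions).

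In the RefSeq promoters, 250 bases before to 50 after the start, 7 of the 9 genes had an entry (all but KAT6A and KAT8). The ETS consensus CCGGAAGT was in KAT5 and KAT7 (6.33% of 15316 promoters), GGGCGG in CREBBP, KAT2B, KAT5 and KAT6B (59.2%) and the IRF consensus in CREBBP alone (1.63%). The CREBBP promoter printed above thus held no match to CCGGAAGT in the window searched, and shorter or variant ETS sequences were not searched. The NFY box was in 0 of the 7 (36.6% of all promoters), as were the AP1 site (3.68%), the CRE (TGACGTCA, 2.64%) and the NRF1 (2.09%) and CTCF (0.947%) consensuses. A match or its absence describes letters in a window and not binding.

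The wider acetylation machinery was described from 3 lists without the 9 members. All 52 acetyltransferase and complex-subunit genes had a promoter peak in every library, as did 17 of 18 lysine deacetylase genes and 27 of 29 genes of acetyl-lysine readers, the proteins that bind acetylated histones. The medians of the acetyltransferase list were -0.09 in WT-IFN-γ against WT, -0.15 in sgFLI1-IFN-γ against sgFLI1, 0.10 in sgFLI1 against WT and -0.03 in sgFLI1-IFN-γ against WT-IFN-γ. In the same order, 0, 2, 0 and 1 of the 52 genes were lower by more than 1.5-fold and 0 were higher in any. Of all promoters, 1.93%, 3.05%, 4.34% and 5.61% were lower and 1.51%, 0.670%, 3.67% and 2.82% higher. Counts this small cannot be read as different from these shares, and the same holds for the other lists. Some of the list genes beyond 1.5-fold are named here, after their values were seen. DMAP1 (-0.75) and ATAT1 (-0.69) were lower in sgFLI1-IFN-γ against sgFLI1, and TADA2B (-0.63), a SAGA-type complex subunit, was lower in sgFLI1-IFN-γ against WT-IFN-γ. The histone deacetylase gene HDAC3 was higher in sgFLI1 than in WT (0.70) and lower in sgFLI1-IFN-γ than in sgFLI1 (-0.65). Of 17 deacetylase genes compared, it was the only one beyond 1.5-fold in either comparison. Among bromodomain readers, SMARCA2 was higher (0.74) in sgFLI1 against WT, and BRD7 was lower (-0.94) in sgFLI1-IFN-γ against WT-IFN-γ. Of 27 reader genes compared, 2 were higher and 1 lower in the first of these comparisons. In the second, 1 was higher and 1 lower. MLLT3, the gene of a YEATS-domain reader of acetylated histone H3, was the single gene of these lists beyond 1.5-fold in the same direction in both comparisons of genotypes or in both of IFN-γ, with 59 tags in WT and 66 in WT-IFN-γ cells, against 104 in sgFLI1 and 89 in sgFLI1-IFN-γ cells. Its log2 ratios were 1.03 (0.56 to 1.52) and 0.80 (0.32 to 1.28), where 1.10% of 12553 promoters were higher and 1.67% lower in both. MLLT3 lies on chromosome 9. Ratios of the list genes were not set beside those of peaks within 5 Mb, so whether neighbouring peaks shared their shifts was not tested. After IFN-γ, 0.0797% of promoters were higher and 0.143% lower in both genotypes.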

How the data were processed

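ATAC-seq peak lists of 4 HK1 groups were used, 1 list for each. According to the methods and the submitters' processing notes, the authors used Trimmomatic 0.3 for trimming and Bowtie2 2.3.4.1 for alignment to GRCh38, removed low-quality and duplicate alignments, called peaks with MACS2 2.1.2 and applied a reproducibility filter. Whether a list holds 1 replicate or pooled ones is not given in the sources used here, and each list was treated as 1 library. For each peak the authors deposited a score, a fold enrichment (a ratio to background) and −log10 p and −log10 q values, and these served to recover tags and to filter.

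The summit pileup and its background were solved from fold and −log10 p under the Poisson model of MACS. For 100% of peaks a whole number satisfied both within 0.02 in −log10 p. The library's lowest background divided by its shortest peak gave the tag density. Pileups have exact Poisson intervals, ratios exact conditional binomial ones and shares Wilson ones (95%), all for counting error only. Peaks overlapping by 1 bp were counterparts. The canonical promoter was the strongest summit within 3 kb of the Ensembl canonical TSS (GENCODE 44), and neighbourhoods were one-to-one shared peaks of over 60 tags in both libraries together within 5 Mb. The tags estimated for an unlisted peak are those reaching the library's lowest listed −log10 p over an expected background. That background was the region's own in the other lists, scaled to the library's depth and not below the library's lowest. The reproducibility filter is not part of this estimate. No peak ended beyond a GRCh38 chromosome. Motifs were the letters named in the text, and IRF, CTCF and NRF1 consensuses. RefSeq promoters are from GRCh38.p14.

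The members and gene lists were chosen with earlier results of these data known. All 9 members are named. A few items of the marker and gene lists are not reported here. Of the 3 lists, genes beyond 1.5-fold in the same direction in both comparisons of a kind are named, up to 4 a list. Likeness to CREBBP was the mean absolute difference of 3 log2 ratios to WT. Alternatives were other windows, −log10 q limits, overlaps and scalings. The steps were tested on simulated data. Python 3.11.15 was used with scipy 1.17.1, pandas 2.3.3, numpy 2.4.6 and matplotlib 3.10.9.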

Additional observations from a re-analysis of the deposited data

Results flagged for a closer look

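The change in number of peaks after IFN-γ had opposite signs in the 2 genotypes for 2 genes and for the whole set. CREBBP had 3 peaks more after IFN-γ in WT cells, and in FLI1-KO cells the change was -1. KAT2B had 6 more in WT cells, with a change of -1 in FLI1-KO cells. Over the 9 genes the change was 9 in WT cells and -5 in FLI1-KO cells. With peaks of −log10 q of at least 5 the changes over the 9 genes were 2 and -3, and CREBBP had 1 and 0 and KAT2B 2 and -1. At 10 the opposite signs were gone, with -3 and 0 over the 9 genes, -2 and 0 for CREBBP and 1 and 0 for KAT2B. With 1 peak list a group these differences were not tested. WT-IFN-γ was the deepest library (8.84 tags per kb) and sgFLI1-IFN-γ the shallowest (6.86), and the part of depth was not tested.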

How the results depend on the processing

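Every member kept a promoter peak in every library at both −log10 q limits, and with the summit within 1 kb all but EP300 in sgFLI1-IFN-γ did (8 of 9), whose summit lay at -1011 bp from the TSS. All 180 recomputed promoter ratios of single genes stayed within the counting interval of the reported value. Dividing by another library-wide value shifts all genes of a comparison by the same amount, here less than the counting error. For those settings the outcome was fixed beforehand and says little about the ratios. The sign turned in 20 of the 180, all with a reported interval that includes 0 and a reported size of at most 0.17. Of 316 recomputed values, these 180 included, 295 stayed within the counting interval or 1.5 times of the reported one. At −log10 q of at least 5, WT-IFN-γ had 6 intronic peaks, 5 peaks with no counterpart in WT and 5 with none in sgFLI1-IFN-γ. At −log10 q of at least 10, the 9 genes had 19 peaks in WT-IFN-γ against 22 in WT, and 17 in each FLI1-KO library, with 3 intronic ones in WT-IFN-γ and 4 in sgFLI1. Peaks with no counterpart were then 2 for WT-IFN-γ against WT, 5 for WT against WT-IFN-γ, 1 for sgFLI1 against sgFLI1-IFN-γ, 0 for sgFLI1 against WT and 3 for WT-IFN-γ against sgFLI1-IFN-γ. With −log10 q of at least 5 required of a peak, while any weaker peak in the other list still counted as a counterpart, there were 4 WT-IFN-γ peaks missing from WT and 5 missing from sgFLI1-IFN-γ, 3 WT peaks missing from sgFLI1, and 0 sgFLI1-IFN-γ peaks missing from sgFLI1 or from WT-IFN-γ. A higher limit removes weak peaks by construction. Dividing by library background moved the median promoter ratio of WT-IFN-γ against WT to 0.13. KAT2B was beyond 1.5-fold in sgFLI1 against WT in the reported setting, and the number of genes beyond it was 0 with library background (KAT2B -0.57), with the neighbourhood median subtracted (-0.54), and with the nearest peak in place of the strongest (-0.55). KAT2B stayed beyond it when scaled to the median pileup of peaks in all 4 lists (-0.70) and with local background subtracted (-0.74). The cause was not tested. No paired analysis was possible because each group has 1 peak list. Leaving out a replicate could not be done for the same reason, and the depth limits which weak peaks can be called absent.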
